A study of Homo sapiens with 8 samples.

Results

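The genes described here are the 10 human cyclic AMP (cAMP) phosphodiesterase genes of the PDE3, PDE4, PDE7 and PDE8 subfamilies: PDE3A, PDE3B, PDE4A, PDE4B, PDE4C, PDE4D, PDE7A, PDE7B, PDE8A and PDE8B. They were chosen by name, and 9 of them were found by symbol among the 58870 rows of a gene count table. The tenth, PDE4A, was found by its Ensembl identifier, ENSG00000065989, because that row carries the symbol AC011529.1 in the table. RNA sequencing was done on bulk cultures of the CFPAC-1 cell line, which derives from a ductal adenocarcinoma of the human pancreas. Cells with an empty vector (n = 4) were compared with cells that overexpress an ADRA2A transgene (n = 4). All 8 cultures were grown in IMDM medium with 10% fetal bovine serum and 1% penicillin and streptomycin for 72 hours, and none was given a drug or a receptor agonist. The promoter of the transgene, and whether the cells were a pool or a clone, are not given in the sources used here. The labels do not state whether replicates were cultured separately, so p-values measure the spread between these samples, which may be technical.

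Cyclic AMP is made by adenylyl cyclases, which Gs stimulates and Gi inhibits, and it acts through protein kinase A (PKA), EPAC exchange factors and Popeye proteins. Phosphodiesterases end the signal by hydrolysing cAMP to AMP, and their placement in the cell shapes where cAMP is high. PDE4, PDE7 and PDE8 enzymes are specific for cAMP, while PDE3 enzymes also bind cGMP, which slows their hydrolysis of cAMP. ADRA2A encodes the alpha-2A adrenergic receptor, which couples to Gi. Several phosphodiesterase genes are known to be induced by cAMP through cAMP response elements, the DNA sites bound by the factor CREB, and PKA phosphorylates long PDE4 forms and PDE3 enzymes.

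The upstream DNA of the members is shown first, because such elements are a feature that was not used to choose the genes. The palindromic cAMP response element TGACGTCA and its 5-base core (TGACG, or CGTCA on the other strand, both also contained in the palindrome) were searched in the 250 bases upstream of each RefSeq start site (GRCh38.p14). Start sites were listed for 8 of the 10 members, 32 windows in all. None was listed for PDE3B and PDE7A, so their upstream DNA was not searched. The palindrome was in 1 of the 32 windows, that of PDE7B, against 1.65% of the 35116 windows of all genes. A core was in 4 of the 32 windows, against 21.2% of all windows. The 3 windows below are those of PDE7B, with the palindrome, of the PDE4A start site that has 5 separate cores, and of the PDE4D start site that has a core. Capitals mark the matches, and each sequence reads 5′ to 3′ on the strand of its gene. They are matches of letters only, and no binding was measured.
PDE7B (chr6:135851451-135851700, plus strand): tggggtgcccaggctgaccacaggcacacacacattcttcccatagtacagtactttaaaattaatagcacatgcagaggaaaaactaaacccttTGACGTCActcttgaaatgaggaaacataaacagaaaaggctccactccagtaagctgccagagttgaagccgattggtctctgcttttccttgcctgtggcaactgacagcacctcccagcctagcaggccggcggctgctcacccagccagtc
PDE4A (chr19:10416523-10416772, plus strand): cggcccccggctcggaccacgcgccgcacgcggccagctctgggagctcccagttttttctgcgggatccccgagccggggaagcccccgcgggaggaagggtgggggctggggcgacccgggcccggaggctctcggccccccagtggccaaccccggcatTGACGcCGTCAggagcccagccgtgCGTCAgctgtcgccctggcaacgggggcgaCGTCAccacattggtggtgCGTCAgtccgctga
PDE4D (chr5:59587626-59587875, minus strand): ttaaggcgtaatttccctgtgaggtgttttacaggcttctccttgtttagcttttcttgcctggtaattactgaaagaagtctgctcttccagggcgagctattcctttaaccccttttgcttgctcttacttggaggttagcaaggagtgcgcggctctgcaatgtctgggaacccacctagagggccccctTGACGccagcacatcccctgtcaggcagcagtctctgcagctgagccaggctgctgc

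The PDE7B palindrome begins 155 bases before the start site. In PDE4A the cores begin 88, 82, 63, 33 and 14 bases before the start, and in PDE4D the core begins 57 bases before it. PDE4D is a gene of 1553 kb with 14 protein-coding transcripts in GENCODE release 44, and its other 7 listed start sites had no core. The other window with a core was 1 of the 4 of PDE4C, and the other 4 windows of PDE4A had none. No match was found in the windows of PDE3A (1 listed), PDE4B (6), PDE8A (3) and PDE8B (4). The window listed for PDE3A lies 204 kb inside the GENCODE gene, so the DNA before the outermost start of PDE3A was not searched.

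Library totals lay between 14427040 and 17528910 estimated counts, and 14785 genes passed the filter on low counts and were tested. ADRA2A had 0 counts in all 4 empty-vector libraries and 112, 142, 154 and 172 in the ADRA2A libraries. Ductal epithelial markers were abundant, with a summed level of 12214 to 12791 CPM (counts scaled to a common library size, with TMM factors) in the empty-vector and 12153 to 13209 CPM in the ADRA2A libraries, although CFTR was too low to test. The like sums do not mean unchanged markers. Of the 9 tested, 4 were higher and 4 lower with ADRA2A (edgeR adjusted p under 0.05), when 21.6% and 21.1% of all tested genes were. The 8 fibroblast markers summed to 2.04 to 2.55 CPM and 1.18 to 1.72 CPM, and the 6 endothelial markers to 2.05 to 2.71 CPM and 2.64 to 3.35 CPM, with TEK and CLDN5 at 0. Among 8 leukocyte markers CD3E and MS4A1 were at 0. Their sum, 121 to 134 CPM against 199 to 212 CPM, was carried by CD68 (91.6 and 114 CPM on average) and LYZ (31.9 and 89.7 CPM). The part of these markers in the results below was not tested. In bulk samples fewer expressing cells and less RNA per cell cannot be told apart.

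Of the 10 members, 7 passed the filter and 3 (PDE3B, PDE4B and PDE4C) did not. PDE3A, PDE4D and PDE7B rose in the ADRA2A cells and PDE8B fell, while PDE4A, PDE7A and PDE8A did not pass the test at a Benjamini-Hochberg adjusted p-value under 0.05 (edgeR's quasi-likelihood test, adjusted over all genes tested). So 4 of the 7 were called, 3 higher and 1 lower, when 42.7% of all tested genes were called, 21.6% higher and 21.1% lower. In those 4 members every library of one group lay above every library of the other, as was so in 39.2% of all tested genes. The median log2 fold change over the 7 was -0.04, against 0.00 over all genes tested. Without PDE4A, 4 of 6 were called. These counts include PDE8B, which passed the filter through the empty-vector libraries alone.

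**Figure D1:**
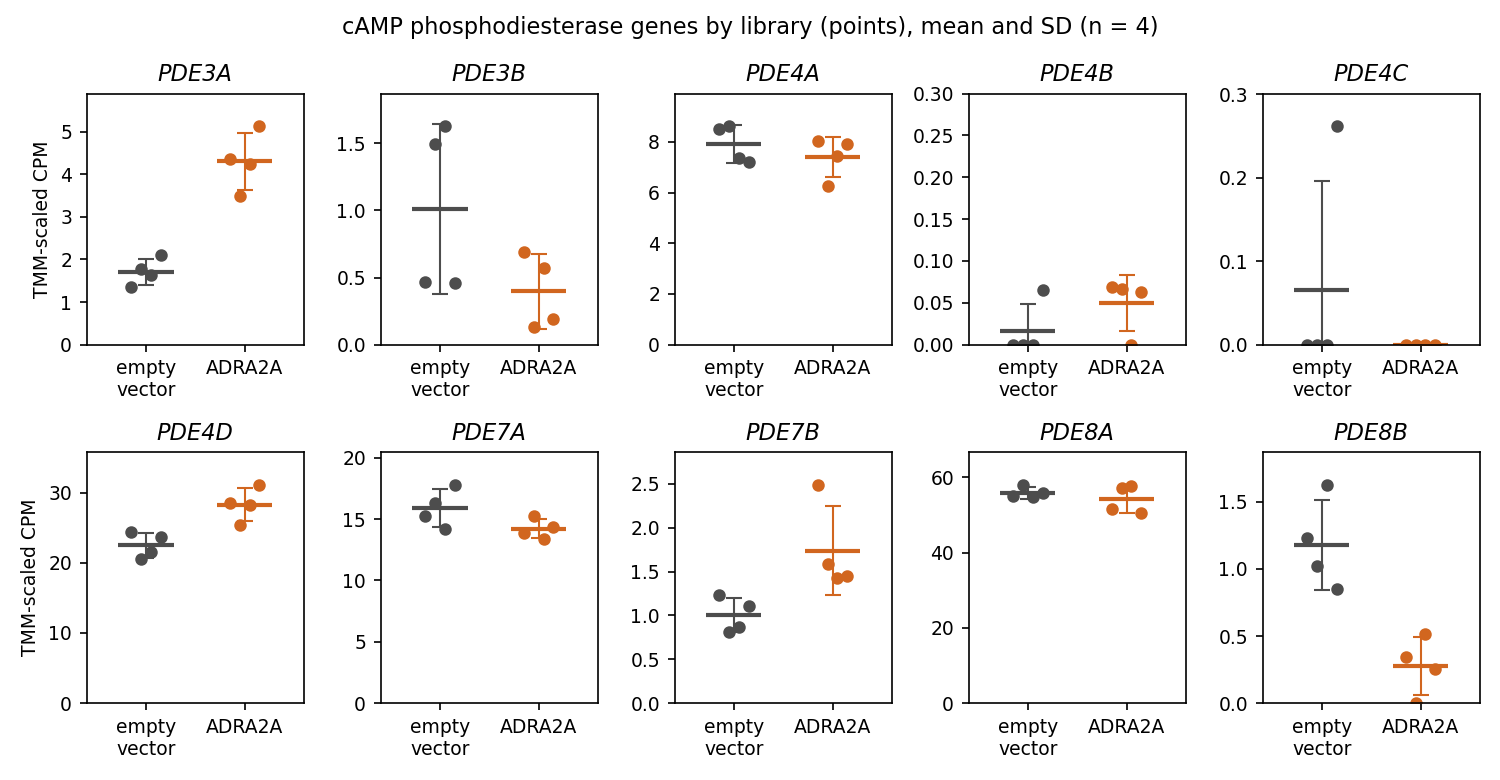
Level of each of the 10 cAMP phosphodiesterase genes in every library, in TMM-scaled CPM (vertical axes from 0, each with its own scale). Points are libraries, horizontal lines the group means and bars the SD (n = 4). PDE3A, PDE4D and PDE7B sit higher and PDE8B lower in all 4 ADRA2A libraries. PDE4B and PDE4C are near 0.

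Levels of different genes were compared per length, as CPM per kilobase (kb) of the canonical transcript. PDE8A, a high-affinity cAMP-specific enzyme that common phosphodiesterase inhibitors do not block, was the most abundant member in both groups. Its per-length level was 13.8 ± 0.378 CPM per kb (SD, n = 4) with empty vector and 13.4 ± 0.928 with ADRA2A, or 65.1% ± 0.908 and 63.1% ± 2.97 of the summed level of the 10 genes. PDE4D followed with 2.76 ± 0.221 and 3.47 ± 0.286 CPM per kb. PDE7A had 2.29 ± 0.219 and 2.04 ± 0.112, and PDE4A had 1.62 ± 0.150 and 1.51 ± 0.164 CPM per kb. In the empty-vector cells the ranges of PDE4D and PDE7A overlapped. The other 6 members were each under 0.4 CPM per kb on average in both groups.

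The summed per-length level of the 10 genes was 21.3 ± 0.470 CPM per kb in the empty-vector libraries and 21.3 ± 0.555 in the ADRA2A libraries, a difference smaller than the spread between replicates. With the median coding transcript length the sums were 33.3 ± 0.909 and 34.3 ± 0.570 CPM per kb, a difference larger than either SD, although the libraries overlapped. The makeup of the sum with the canonical length moved by a few percentage points. PDE4D held 13.0% ± 1.09 of it with empty vector and 16.3% ± 1.61 with ADRA2A, and PDE3A 0.643% ± 0.112 and 1.62% ± 0.277. The share of PDE8B was 1.21% ± 0.371 and 0.283% ± 0.214. These shares depend on the transcript length assumed. With the median length of each gene's coding transcripts PDE8A held 43.5% and 41.1% and PDE4D 26.6% and 32.5% in the 2 groups. With the length of all exons joined, PDE7A (12.9%) stood above PDE4D (11.9%) in the empty-vector cells, and PDE8A remained the most abundant.

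**Figure D2:**
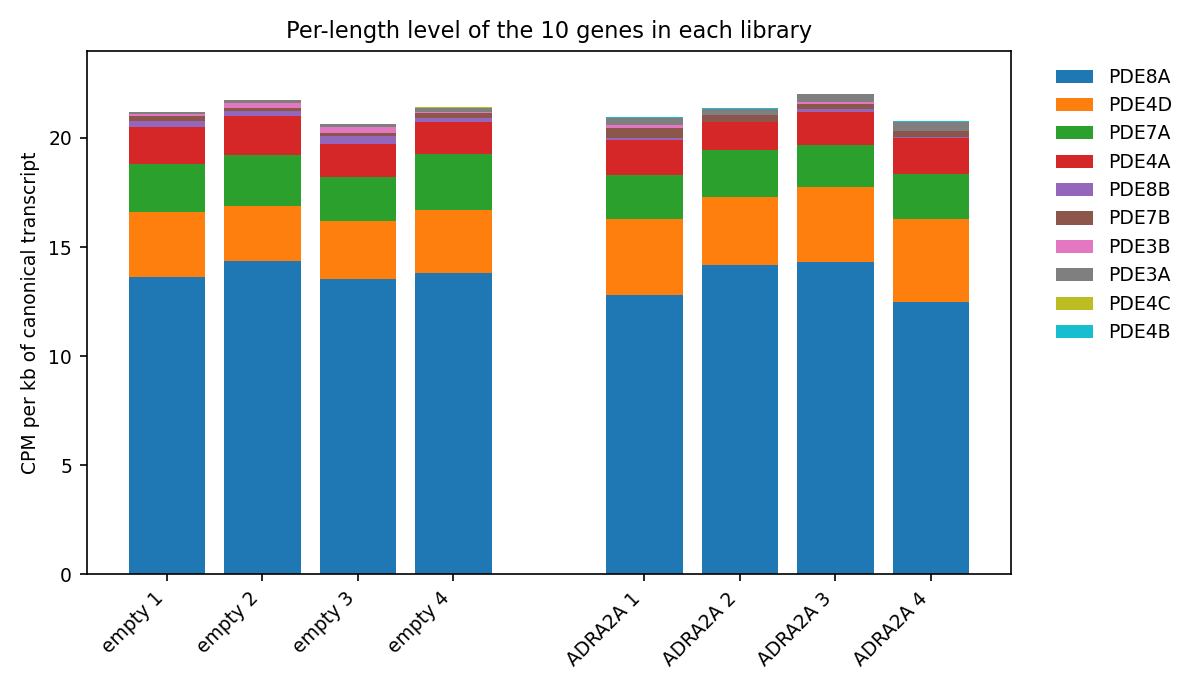
Per-length level (CPM per kb of canonical transcript) of the 10 genes stacked for each of the 8 libraries. PDE8A makes up most of each bar, the bars have like heights (group means of 21.3 and 21.3 CPM per kb), and the PDE4D band is thicker in the ADRA2A libraries.

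PDE3 enzymes are the phosphodiesterases through which cGMP can raise cAMP. PDE3A (ENSG00000172572.6; chromosome 12, 20368537 to 20688583, plus strand of GRCh38) had levels of 1.35, 1.76, 1.63 and 2.09 CPM in empty-vector replicates 1 to 4 and of 4.36, 3.50, 4.24 and 5.12 CPM in ADRA2A replicates 1 to 4. Every ADRA2A library lay above every empty-vector library. The rise was 2.53-fold, a log2 fold change of 1.34 ± 0.21 (SE; 95% interval 0.91 to 1.77; edgeR adjusted p = 2.83e-05). This rests on 23 to 32 counts per empty-vector library and 53 to 81 per ADRA2A library. The absolute change of PDE3A was above that of 97.3% of the tested genes. Over 14 alternative fits its log2 fold change stayed between 1.23 and 1.45 with adjusted p-values up to 1.76e-04. A processed pseudogene on the same strand within PDE3A, with 446 counts over all libraries, had a log2 fold change of -0.52 (edgeR adjusted p = 0.0913).

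PDE3B, the isoenzyme known from fat and liver cells for its part in insulin action, was not among the genes tested. Its libraries held 8, 22, 28 and 7 counts with empty vector and 10, 2, 10 and 3 with ADRA2A. Empty-vector replicates 2 and 3 stood apart from replicates 1 and 4, and the groups overlapped. The level was 1.01 ± 0.635 CPM and 0.397 ± 0.278 CPM (SD, n = 4 each). With no filter on low counts the fitted log2 fold change of PDE3B was -1.33 (edgeR adjusted p = 0.0166), opposite in sign to that of PDE3A. The adjusted p-values of that fit are unlike those of the main fit. PDE3A had 1.34e-08 in it against 2.83e-05, and PDE7B 0.0583 against 0.0353 (edgeR).

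PDE4 enzymes are the targets of rolipram and roflumilast, and their long forms carry upstream conserved regions through which PKA activates them. PDE4D (ENSG00000113448.19; chromosome 5, 58969038 to 60522120, minus strand) had 24.4, 20.5, 21.5 and 23.6 CPM in empty-vector replicates 1 to 4 and 28.5, 25.4, 28.2 and 31.1 CPM in ADRA2A replicates 1 to 4. The groups did not overlap, but the lowest ADRA2A library was close to the highest empty-vector library. The rise of PDE4D was 1.26-fold (log2 fold change 0.33 ± 0.08, SE; 95% interval 0.17 to 0.49; edgeR adjusted p = 0.00138). It was called in all 15 alternative fits, with log2 fold changes of 0.28 to 0.38. Changes larger in size than that of PDE4D were common, as it exceeded 73.7% of tested genes. Gene-level counts do not separate the long and short PDE4D forms.

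PDE4A (chromosome 19, 10416773 to 10469630, plus strand), whose upstream window held the 5 cores, had 8.49, 8.62, 7.38 and 7.20 CPM with empty vector and 8.03, 6.27, 7.44 and 7.91 CPM with ADRA2A. The libraries overlapped, and the log2 fold change was -0.10 ± 0.12 (SE; 95% interval -0.34 to 0.15; edgeR adjusted p = 0.548). The row of PDE4A overlaps CDC37, an abundant gene on the opposite strand with 16706 counts. CDC37 was called lower, with a log2 fold change of -0.14 (edgeR adjusted p = 0.0107). The use of strand in the counting is not given in the sources used here. The log2 ratio of PDE4D to PDE4A counts was 1.93 ± 0.08 with ADRA2A (SD, n = 4), higher by 0.43 than with empty vector (SD 0.19, n = 4). In this ratio the groups did not overlap (exact permutation test, two-sided, p = 0.0286, the smallest that 4 against 4 can give). The pair was chosen after the values were seen, so this p-value is no further support for the call of PDE4D.

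PDE4B, the subtype best known from inflammatory cells, and PDE4C were close to absent from the libraries. PDE4B had 1 count in the empty-vector libraries together and 3 in the ADRA2A libraries. PDE4C had 4 counts, all in empty-vector replicate 4, and 0 in the ADRA2A libraries, where 3 counts over the group, the limit that a count of 0 allows, would be 0.0477 CPM. This limit covers counting error only, and no difference in either gene was detectable at this depth.

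PDE7 enzymes are cAMP-specific and insensitive to rolipram. PDE7A (chromosome 8, 65714334 to 65842322, minus strand) had 15.3, 16.4, 14.2 and 17.8 CPM with empty vector and 13.9, 15.2, 13.4 and 14.4 CPM with ADRA2A, with overlapping ranges. The difference on the log2 scale was -0.16 ± 0.09 (SE; 95% interval -0.34 to 0.02; edgeR adjusted p = 0.151). PDE7A overlaps MTFR1 on the opposite strand (4158 counts), which had a log2 fold change of -0.27 (edgeR adjusted p = 9.23e-04).

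PDE7B (ENSG00000171408.14; chromosome 6, 135851701 to 136195574, plus strand), whose upstream window held the palindromic element, had 1.23, 0.814, 0.871 and 1.11 CPM in empty-vector replicates 1 to 4. No window of PDE7A was searched. The ADRA2A replicates had 2.49, 1.58, 1.43 and 1.45 CPM, so the groups did not overlap but replicate 1 stood above the other ADRA2A libraries. The rise was 1.71-fold (log2 fold change 0.77 ± 0.29, SE; 95% interval 0.17 to 1.37; edgeR adjusted p = 0.0353), on 12 to 36 counts per library. Without ADRA2A replicate 1 the log2 fold change of PDE7B was 0.56 and the call was lost (adjusted p = 0.152). It was also lost without empty-vector replicate 2 (adjusted p = 0.0930), 3 (0.0912) or 4 (0.0544), with DESeq2 (0.0573) and with no filter (0.0583). The log2 ratio of PDE7B to PDE7A counts went from -3.96 ± 0.27 to -3.05 ± 0.39 (SD, n = 4 each; exact permutation test, two-sided, p = 0.0286). This pair was also chosen after the values were seen, so the p-value is no further support for the call of PDE7B.

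PDE8 enzymes have the highest affinity for cAMP and are not blocked by the general inhibitor IBMX. PDE8A (chromosome 15, 84980440 to 85139145, plus strand) had 54.9, 58.0, 54.7 and 55.8 CPM with empty vector and 51.6, 57.1, 57.7 and 50.4 CPM with ADRA2A. ADRA2A replicates 1 and 4 were the lowest, and replicates 2 and 3 lay among the empty-vector libraries. The 95% interval of its log2 fold change (-0.04 ± 0.05, SE), -0.15 to 0.07, was the narrowest of the 7 members (edgeR adjusted p = 0.567).

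PDE8B (ENSG00000113231.13; chromosome 5, 77210449 to 77428256, plus strand) had 1.23, 1.02, 1.63 and 0.851 CPM with empty vector and 0.346, 0, 0.515 and 0.253 CPM with ADRA2A. The groups did not overlap, and ADRA2A replicate 2 had no count. PDE8B was 4.09-fold lower in the ADRA2A cells (log2 fold change -2.03 ± 0.47, SE; 95% interval -3.02 to -1.05; edgeR adjusted p = 0.00161). The empty-vector libraries together held 76.7 estimated counts and the ADRA2A libraries 18. PDE8B passed the filter through the empty-vector libraries alone, since 4 of them and 0 of the ADRA2A libraries reached 0.645 CPM, so its presence among the tested genes went with a difference. Over 14 alternative fits its log2 fold change lay between -2.54 and -1.64, with adjusted p-values up to 0.00893. WDR41, which overlaps PDE8B on the opposite strand with 4039 counts, had a log2 fold change of -0.11 (edgeR adjusted p = 0.218). The log2 ratio of PDE8B to PDE8A counts went from -5.57 ± 0.41 to -8.01 ± 1.86 (SD, n = 4 each; exact permutation test, two-sided, p = 0.0286), a difference of -2.45. The ratio of ADRA2A replicate 2, which had no PDE8B count, is set by the 0.5 added to each count. Without that library the difference was -1.53, and the groups still did not overlap. These ratios use the same PDE8B values that decided its passing of the filter, so they are no separate support for its fall. The 3 ratios within subfamilies were chosen after the values were seen, each with a called member over one that was not called. Each exact permutation p-value was 0.0286 also after Benjamini-Hochberg adjustment over the 3. That adjustment does not make up for the choice of pairs, so these p-values are no further support for the calls.

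**Figure D3:**
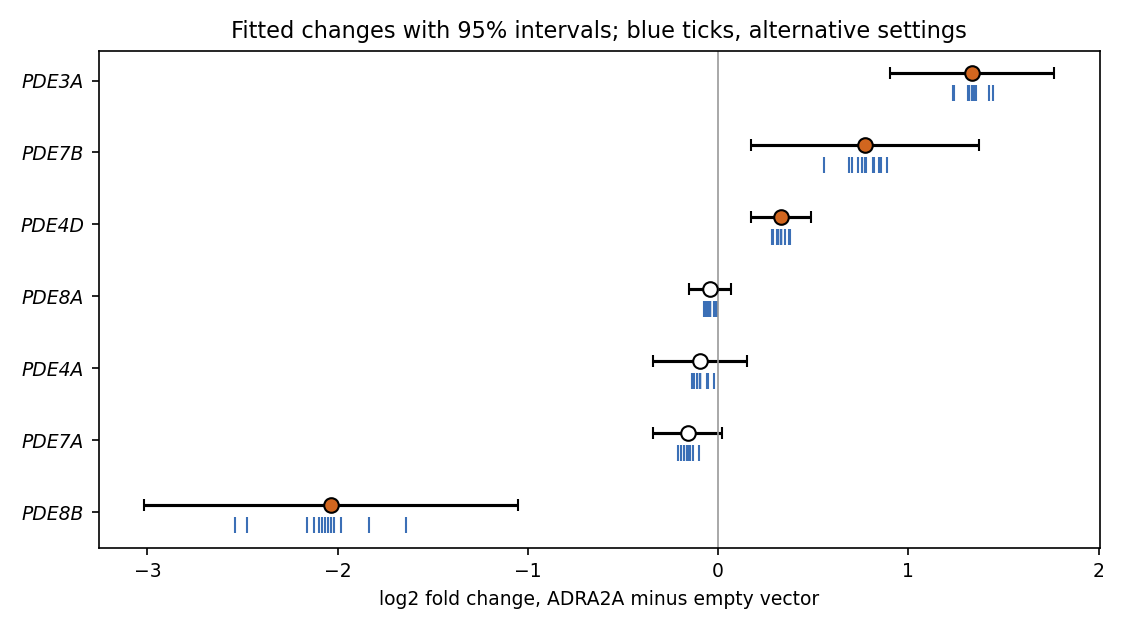
Fitted log2 fold change (ADRA2A minus empty vector) of the 7 tested members with 95% intervals (black bars). Filled circles have an adjusted p-value under 0.05, and blue ticks are the values under the alternative settings. All ticks of a member lie on the same side of 0. Intervals are widest for PDE8B and PDE7B, the members with the fewest counts.

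To see whether a member moved with its part of the chromosome, it was set beside the 20 tested genes on either side of it. The 40 neighbours of PDE3A had a median log2 fold change of 0.02, with 21 above and 19 below 0, and 4 of them changed more in size than PDE3A. Those of PDE7B had a median of -0.04 and those of PDE8B of -0.05, and none of the 40 neighbours of PDE8B changed as much as it did. Since PDE8B passed the filter through the empty-vector libraries alone, that comparison is no separate support for its change. PDE4D rose while most of its neighbours lay slightly below 0. Of its 40 neighbours, which span 12.6 Mb, 30 had a log2 fold change below 0, and the median was -0.11. Among these neighbours 10 were called lower and 1 higher, when 21.1% of all tested genes were called lower and 21.6% higher. For the untested PDE4B, 31 of 40 neighbours were above 0 (median 0.16). The neighbours of PDE4A, PDE7A and PDE8A had medians of -0.06, 0.01 and 0.06.

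**Figure D4:**
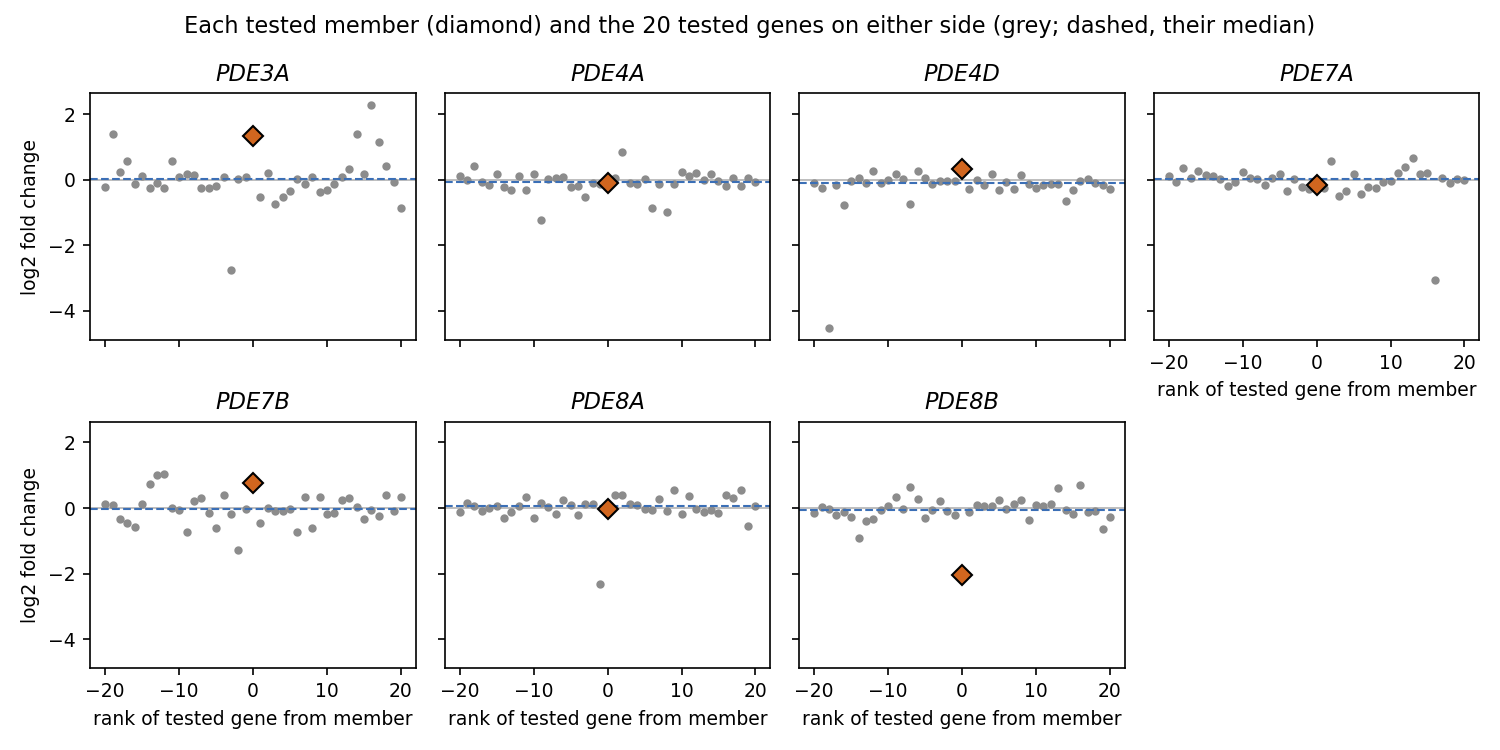
Log2 fold change (ADRA2A minus empty vector) of each tested member (diamond, at rank 0) and of the 20 tested genes on either side in chromosome order (grey points; dashed line, their median). PDE3A, PDE7B and PDE8B stand away from medians close to 0, and PDE4D lies above neighbours with a median of -0.11.

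The other phosphodiesterase genes hydrolyse both cyclic nucleotides or cGMP alone, or are accessory subunits. Of 14, 6 were tested, 3 of them called higher and 1 lower, with a median log2 fold change of 0.16. For this list and those below, the shares over all tested genes were 21.6% called higher and 21.1% lower. PDE10A and PDE11A hydrolyse cAMP and cGMP and went opposite ways. PDE10A fell from 1.73 ± 0.301 to 0.625 ± 0.204 CPM (SD, n = 4 each; log2 fold change -1.47 ± 0.31, SE; edgeR adjusted p = 6.42e-04). PDE11A rose from 4.22 ± 0.901 to 7.48 ± 0.874 CPM (SD, n = 4 each; log2 fold change 0.81 ± 0.15, SE; edgeR adjusted p = 2.50e-04). PDE5A, the cGMP-specific target of sildenafil, rose from 10.1 ± 0.844 to 19.6 ± 2.89 CPM (SD, n = 4 each; log2 fold change 0.95 ± 0.11, SE; edgeR adjusted p = 5.12e-07). PDE6D, a carrier of prenylated proteins with no catalytic activity, had a log2 fold change of 0.23.

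Adenylyl cyclases make the cAMP that these enzymes remove. Of 17 adenylyl cyclase and G protein alpha genes, 12 were tested, 5 were called higher and 2 lower, and the median log2 fold change was 0.06. The cyclases ADCY5 (1.90), ADCY4 (1.35) and ADCY6 (0.27) rose, with the log2 fold changes given. ADCY1 (-0.93) and GNAS (-0.13), which encodes the Gs alpha subunit, fell. ADCY1 reached the filter's 0.645 CPM in 4 empty-vector and 2 ADRA2A libraries, so its presence among the tested genes went with a difference. With no filter on low counts ADCY1 was not called (edgeR adjusted p = 0.0590). ADCY5 and ADCY6 encode the cyclases best known for inhibition by Gi.

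Among the PKA, EPAC and Popeye genes that read the cAMP signal, 13 of 15 were tested, 1 was called higher and 8 lower, with a median log2 fold change of -0.14. Without empty-vector replicate 4, 5 genes of this list were called in all. RAPGEF3, which encodes EPAC1, rose by a log2 fold change of 0.77. PRKAR2B, a PKA regulatory subunit, and PKIB, a PKA inhibitor, fell, with log2 fold changes of -2.03 and -1.19. PRKAR2B reached the filter's 0.645 CPM in 4 empty-vector and 2 ADRA2A libraries, so its presence among the tested genes went with a difference. BVES, which encodes a Popeye protein, fell from 7.24 ± 0.833 to 3.62 ± 0.192 CPM (SD, n = 4 each; edgeR adjusted p = 7.77e-06).

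All 14 genes of phosphodiesterase partners, scaffolds and the cAMP exporter ABCC4 were tested, 5 were called higher and 2 lower, and the median was 0.11. AKAP12, which encodes the anchoring protein gravin, a known PDE4D partner, fell from 157 ± 3.81 to 51.7 ± 5.01 CPM (SD, n = 4 each; log2 fold change -1.60 ± 0.05, SE; edgeR adjusted p = 2.26e-14), and ABCC4 fell with a log2 fold change of -0.35. AKAP13 (0.40), ARRB1 (0.26), which encodes a beta-arrestin able to carry PDE4 to receptors, and AKAP1 (0.19) rose, with the log2 fold changes given. PDE4DIP, the PDE4D-interacting scaffold myomegalin, had -0.01 (edgeR adjusted p = 0.876).

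Of 20 genes known as targets of CREB, 13 could be tested, of which 3 were called higher and 4 lower, and their median log2 fold change was -0.05. FOS (1.87), DUSP1 (0.63) and RGS2 (0.46) rose, and PPARGC1A (-1.87), AREG (-0.92) and CCNA2 (-0.37) fell, by the log2 fold changes given. PPARGC1A reached the filter's 0.645 CPM in 4 empty-vector and 3 ADRA2A libraries, so its presence among the tested genes went with a difference. CREM, whose inducible repressor form is a classical cAMP target, had -0.08 (edgeR adjusted p = 0.549). In all 5 lists and among the members calls went in both directions. That is no trait of these lists, since 21.6% of all tested genes were called higher and 21.1% lower. The only lower calls among the members and the other phosphodiesterases, PDE8B and PDE10A, passed the filter through the empty-vector libraries. The PKA, EPAC and Popeye list was uneven, with 1 called higher and 8 lower of 13. That count includes PRKAR2B, which passed the filter through the empty-vector libraries.

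**Figure D5:**
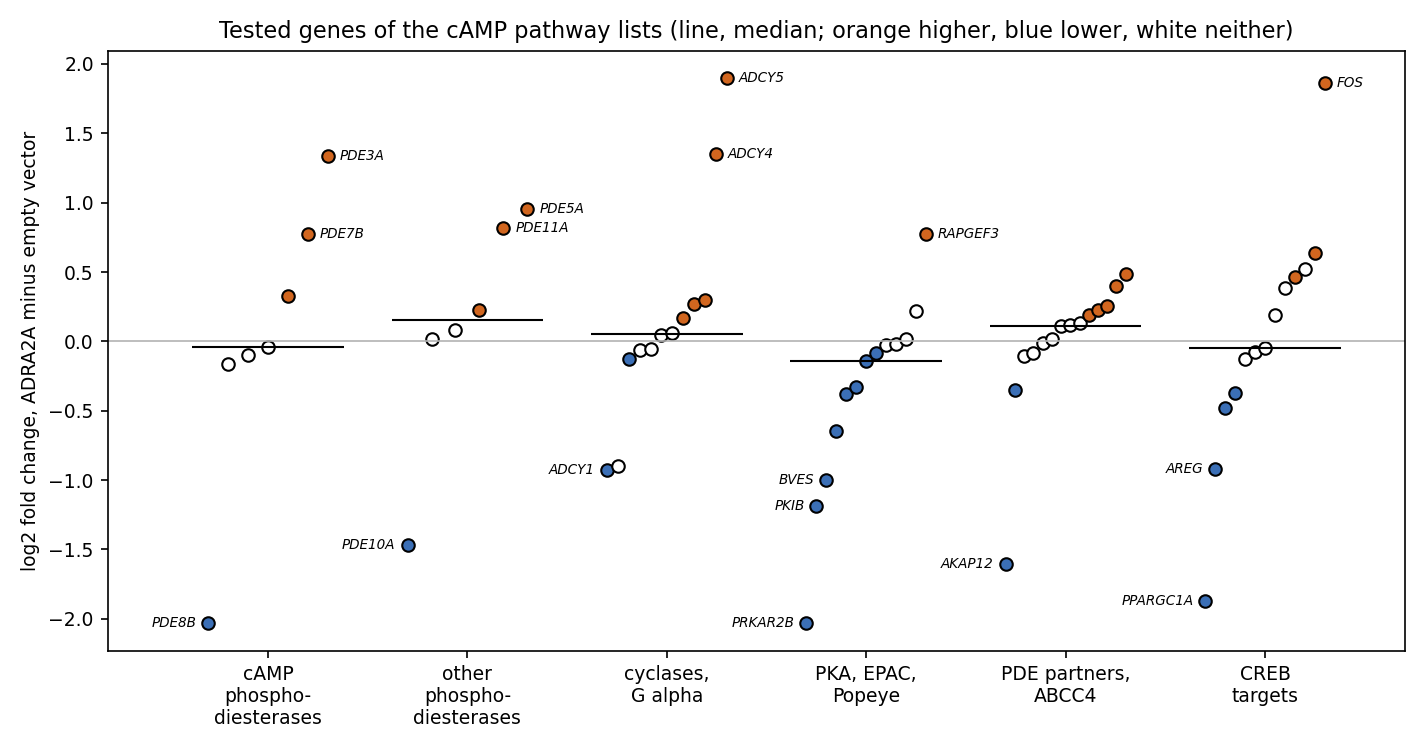
Log2 fold change (ADRA2A minus empty vector) of the tested genes of the cAMP phosphodiesterases and of 5 other lists of the cAMP pathway. Each circle is a gene, horizontal lines are list medians, and orange, blue and white mark genes called higher, called lower and not called. The medians lie between -0.14 and 0.16. Each list holds genes called in both directions, as do all tested genes (21.6% higher and 21.1% lower). The only genes called lower among the members and the other phosphodiesterases, PDE8B and PDE10A, passed the filter through the empty-vector libraries.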

How the data were processed

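The authors deposited 1 table of RSEM estimated counts per gene and sample, not scaled between samples, per the file header. The submitters' processing notes name cutadapt, STAR, RSEM and DESeq2 and the build hg38, without versions or roles. The annotation release and the use of strand are not given in the sources used here. Between 4.61% and 4.90% of entries per sample had decimals, and all were rounded to whole numbers.

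Genes were filtered with edgeR 4.0.16 filterByExpr at its default minimum of 10 counts (0.645 CPM here), scaled by TMM and tested with edgeR's quasi-likelihood test with all 8 libraries in the fit and no covariate besides the group. P-values were Benjamini-Hochberg adjusted over all 14785 genes tested. The standard error is the absolute log2 fold change divided by the square root of F. Scripts were tested on simulated data. CPM of untested genes use the same library sizes. Within-subfamily ratios used counts plus 0.5. Positions and lengths are from GENCODE release 44 (GRCh38), which matched 99.4% of identifiers. No libraries of a group were near-duplicates, since chi-square per degree of freedom between pairs was at least 2.13.

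Named genes are all members, ADRA2A, and at most 3 called genes per direction with the smallest p-value in each of 5 lists written by hand. Members and lists were chosen with earlier results of these data known. Marker genes, overlapping genes, PDE4DIP and CREM are named beyond this rule, the last 2 after their values were seen. The alternatives were DESeq2 1.42.0, RLE or upper quartile factors, limma voom (limma 3.58.1), no filter beyond 1 count, a mean of at least 50 counts, a replicate block, and fits without each library in turn.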

Additional observations from a re-analysis of the deposited data

Results flagged for a closer look

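Each group of 4 libraries was checked for a library far from the other 3 in the level of each member, 20 groups in all. With values that are not near 0, chance flags about 1 in 20. In PDE7B, ADRA2A replicate 1 had 2.49 CPM and the other ADRA2A libraries 1.43 to 1.58 CPM. The remaining 3 cases rest on 0 to 4 counts, where that rate does not hold. PDE4B had 0.0655 CPM (1 count) in empty-vector replicate 4 and 0 in the others, and 0 CPM in ADRA2A replicate 3 and 0.0632 to 0.0692 CPM in the others. PDE4C had 0.262 CPM (4 counts) in empty-vector replicate 4 and 0 in the others.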

How the results depend on the processing

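The number of genes called, 6314, lay between 5703 and 6550 over 15 alternatives, and 0 of the calls shared with it changed direction in any of them. The members called higher were 3, and 2 (without PDE7B) with DESeq2, with no filter, and without empty-vector replicate 2, 3 or 4 or ADRA2A replicate 1. With a mean of at least 50 counts it was 1, as PDE3A, PDE7B and PDE8B were not tested. The members called lower were 1, 2 with no filter and 0 with a mean of at least 50 counts, and from 1 to 2 over the fits that left out a library. The second was PDE3B, which passed the filter without empty-vector replicate 1 or 4 or ADRA2A replicate 3 (adjusted p = 0.0184, 0.0240 and 0.0423). In each of these 3 fits the library left out had made the groups more alike. Empty-vector replicates 1 and 4 (8 and 7 PDE3B counts) lay below their group mean, and ADRA2A replicate 3 (10 counts) lay above its group mean. PDE3B was tested but not called without ADRA2A replicate 2 or 4 (0.123 and 0.119). Calls among the PKA, EPAC and Popeye genes ranged from 5 to 8 when a library was left out, against 9. Of the fold changes of members, 6 alternatives lost a call, all of PDE7B, and none changed sign. In 25 of 40 cases another transcript length moved a member's share of the summed level by more than 1 SD. Leaving out each library, chosen after seeing the data for the ratios within subfamilies, kept the groups apart in all 3 ratios, but 4 against 3 libraries cannot give an exact permutation p-value under 0.0571.

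Same-numbered libraries of the groups did not deviate together (correlations of -0.04 to 0.07), so the numbers were not taken as pairs. With the replicate number as a block 6400 genes were called, and 3 members were higher and 1 lower, as without it. Depth limits PDE3B, PDE4B and PDE4C, which were under the filter with all 8 libraries.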
